A study of Mus musculus with 6 samples.

Results

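The genes described here are 40 genes of hepatic stellate cells and of the extracellular matrix, chosen by name and matched by symbol to the Ensembl gene IDs of a mouse liver count table that lists 53715 genes. All 40 were found, and 38 had enough counts to be tested. They were taken in 4 classes by role: 11 markers of stellate cells, 4 genes of stellate cell activation, 11 collagen chains and 14 other matrix genes. RNA came from livers of 8-week-old F1 males of ICR, an outbred mouse stock, with 3 control F1 and 3 FR F1 libraries. The labels do not spell out FR. They record the stress of the FR F1 group as a famine of the father and that of the other group as control, whereas the title of the series names an overdiet. They name no treatment given to the F1 males themselves, and they do not say how many fathers or litters stand behind the 6 libraries. The question of the comparison is which liver transcripts differ between offspring of exposed and control fathers.

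Hepatic stellate cells lie between hepatocytes and the sinusoidal endothelium, where they store vitamin A and act as the pericytes of the liver. In a resting liver they are quiescent. After injury they can become contractile, matrix-secreting myofibroblasts, with more smooth muscle actin, fibrillar collagen and the protease inhibitor encoded by Timp1. Collagens, laminins and nidogens form the scaffold of the sinusoid and the portal tract, and small leucine-rich proteoglycans such as decorin bind collagen fibrils.

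Library totals ranged from 2279755 to 2730160 counts. The 40 genes together held between 0.0959% and 0.232% of a library's counts. Levels below are CPM, counts relative to the library total, with TMM, edgeR's correction for composition. Control replicate 2 was the lowest control library for 26 of the 38 tested genes and control replicate 3 the highest for 26. Among FR F1 libraries, replicate 2 was the highest for 18. Markers of sinusoidal endothelial cells were also lowest in control replicate 2, with a summed level of 570 CPM against 737 and 919 in control replicates 1 and 3.

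In FR F1 livers Itga8, Pdgfra and Nid1 were higher than in control F1 livers, between 2.78- and 4.96-fold, and they were the only 3 of the 38 tested genes past the threshold (quasi-likelihood F test of edgeR, Benjamini-Hochberg adjustment over all 13022 genes tested, threshold 0.05, n = 3 per group). None of the 38 passed as lower. Over all genes tested 0.837% passed in either direction and 0.392% passed as higher. An unadjusted p under 0.05 with a higher level in FR F1 was found for 23 of the 38, where 9.02% of all genes tested had one. The 3 FR F1 libraries lay wholly above the 3 control F1 libraries for 22 of the 38, against 12.5% of all genes tested, and 36 of the 38 had positive log2 fold changes, against 50.0%. DESeq2 called 11 of the 38 higher and 0 lower, where it called 1.94% of all genes tested higher. The median log2 fold change was 0.98 for the stellate markers, 1.03 for the other matrix genes and 0.61 for the collagens, beside 0.00 over all genes tested. The genes were chosen with earlier results of these data known. Their shares and medians therefore describe the chosen genes and are no test of them against all genes. In bulk tissue, more cells of a type and more RNA per cell cannot be told apart.

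The 3 calls were not kept in every fit that left out 1 library. With edgeR none of the 3 passed without control replicate 2 or without FR replicate 1, 2 or 3. In those fits 15 to 20 of the tested members had an unadjusted p under 0.05 in either direction. The share of all genes with such a p was not computed for them. Over all genes, 17, 7, 11 and 45 passed in those fits, against 109 with all 6 libraries. Over the 6 such fits the log2 fold change was 2.05 to 2.46 for Itga8, 1.42 to 1.59 for Pdgfra and 1.30 to 1.73 for Nid1. Without control replicate 1 all 3 passed among 10 called members, and without control replicate 3 Itga8 passed among 5 while Pdgfra and Nid1 did not (adjusted p = 0.0512 and 0.0658).

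**Figure D1:**
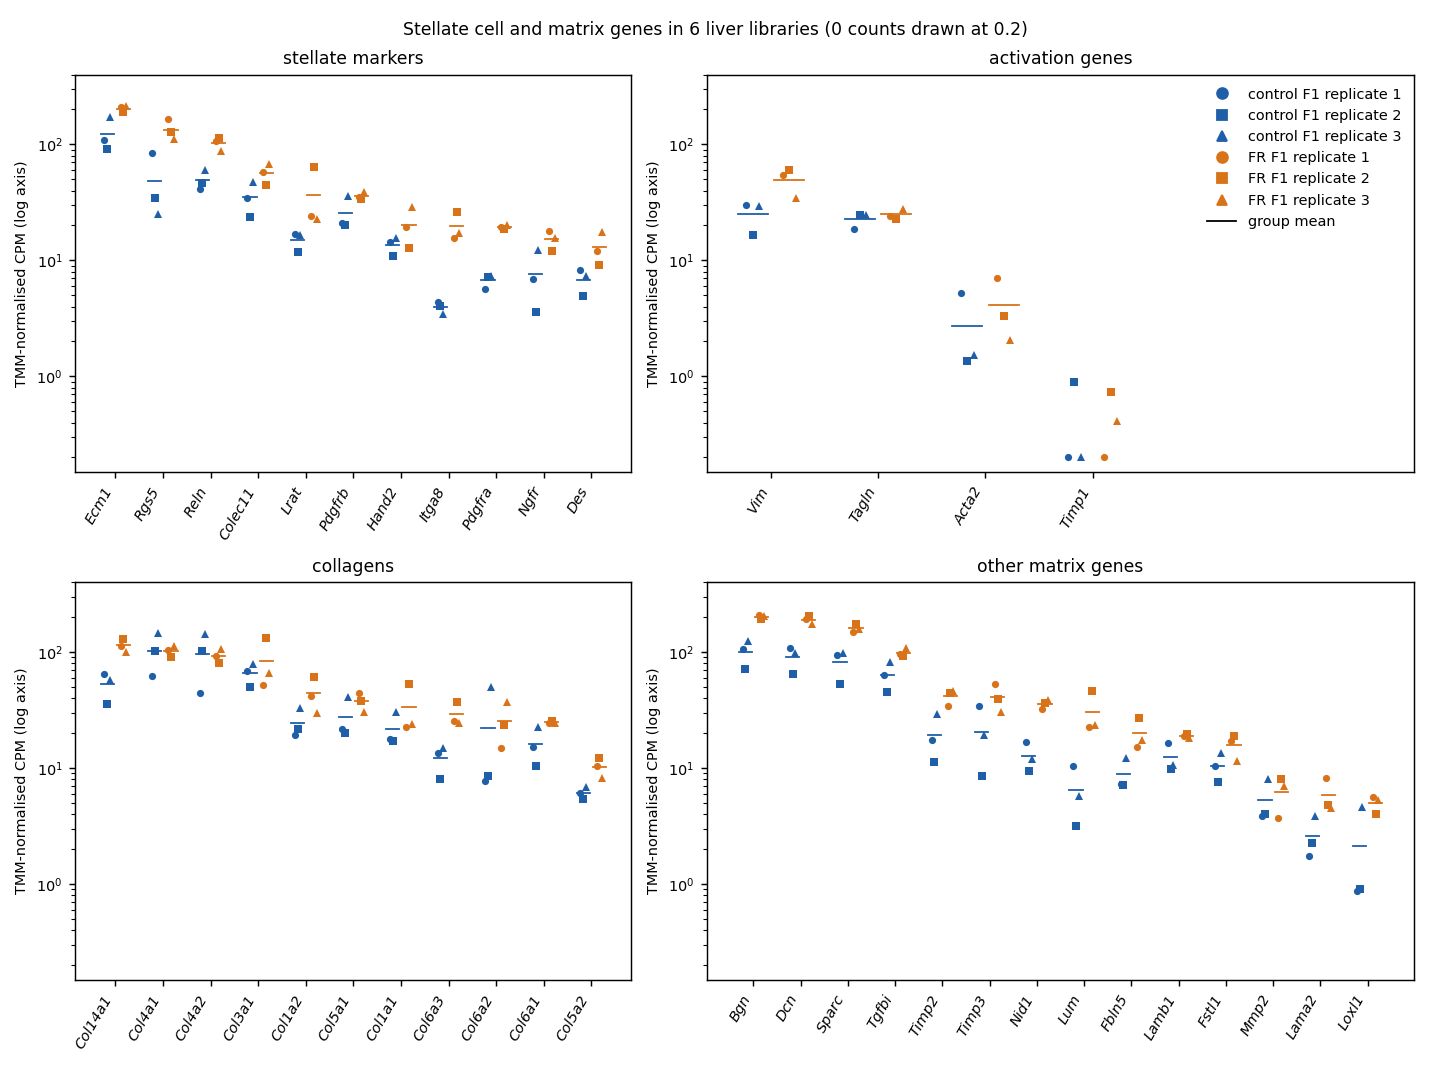
TMM-normalised CPM (log axis) of the 40 genes in each library, by class. Blue points are control F1 and orange points FR F1 libraries, with a symbol for each replicate number and bars for group means. The 3 FR F1 libraries of Itga8 (15.7 to 26.2 CPM) and Pdgfra (18.8 to 20.1 CPM) lie above all control F1 libraries, while those of Col4a1 and Col4a2 lie within the control range.

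The upstream sequences of the 3 genes that passed are given to show what lies before their starts. They are the bases of RefSeq's promoter windows (GRCm38.p6, 5′ to 3′ on the gene's strand) that precede both the RefSeq and the GENCODE start, with motif matches in capitals. Itga8 is at chr2:12301945-12302194 (minus strand), Pdgfra at chr5:75152001-75152250 (plus strand) and Nid1 at chr13:13437352-13437550 (plus strand).
Itga8: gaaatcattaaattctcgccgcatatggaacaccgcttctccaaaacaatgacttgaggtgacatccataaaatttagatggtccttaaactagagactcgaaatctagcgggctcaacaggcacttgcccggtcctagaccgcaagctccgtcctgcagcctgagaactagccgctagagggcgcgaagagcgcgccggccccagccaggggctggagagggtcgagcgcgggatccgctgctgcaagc
Pdgfra: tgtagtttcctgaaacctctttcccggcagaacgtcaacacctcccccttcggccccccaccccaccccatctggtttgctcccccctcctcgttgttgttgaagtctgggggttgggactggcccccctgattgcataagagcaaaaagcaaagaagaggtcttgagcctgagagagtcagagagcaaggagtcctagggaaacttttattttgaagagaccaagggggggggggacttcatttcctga
Nid1: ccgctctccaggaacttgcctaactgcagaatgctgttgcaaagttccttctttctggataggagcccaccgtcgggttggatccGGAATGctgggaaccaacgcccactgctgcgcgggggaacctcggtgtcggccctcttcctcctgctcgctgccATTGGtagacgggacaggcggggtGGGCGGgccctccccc
Both strands were searched for 6 motifs. The letters GGGCGG stand for the GC box and the letters TATAAA for the TATA box. The CCAAT box was searched by the letters of its name, the AP-1 motif was written TGANTCA, the motif of TEAD factors was written GGAATG, and the CArG box was the other one. The Nid1 sequence held 1 GC box, 1 CCAAT box on the other strand and 1 TEAD motif, and the sequences of Itga8 and Pdgfra held no match to any of the 6. Of all 32851 promoter windows of 300 bases, 35.7% held a GC box, 37.4% a CCAAT box and 14.7% a TEAD motif. Of the 40 genes, 31 had such a window, and 21 of the 31 had a GC box, 12 a CCAAT box, 6 a TEAD motif, 3 a TATA box (13.6% of all windows), 2 an AP-1 motif (7.81%) and 1 a CArG box (1.63%). The counts for the 31 are by gene, over their 33 windows, whereas the percentages are by window. These matches are a description of the letters and not of factor binding.

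Among the stellate markers, Itga8, the integrin chain that pairs with beta 1 on mesenchymal cells (ENSMUSG00000026768.10, chromosome 2, 12106632 to 12301922, mm10), had 4.34, 4.06 and 3.45 CPM in the control F1 libraries, ordered here and below by replicate number, and 15.7, 26.2 and 17.2 CPM in the FR F1 libraries. The groups are far apart, and FR replicate 2 is the highest. The log2 fold change was 2.31 ± 0.33 (SE, edgeR adjusted p = 0.0321), from 3.95 ± 0.452 to 19.7 ± 5.65 CPM (mean ± SD, n = 3 per group). These levels rest on 9 or 10 counts in each control F1 library.

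Pdgfra, the receptor for PDGF ligands on quiescent stellate cells and fibroblasts (ENSMUSG00000029231.15, chromosome 5, 75152292 to 75198215), had 5.64, 7.21 and 7.29 CPM in the control F1 libraries and 19.4, 18.8 and 20.1 CPM in the FR F1 libraries. Both groups are tight and do not overlap. Its log2 fold change was 1.53 ± 0.26 (edgeR adjusted p = 0.0456), a 2.88-fold difference, and limma-voom did not call it (adjusted p = 0.0505). The related receptor gene Pdgfrb had 20.8, 20.3 and 35.7 CPM in control F1 and 35.1, 33.9 and 39.0 CPM in FR F1 libraries, so that control replicate 3 stood at the FR F1 level. Its log2 fold change of 0.49 ± 0.26 did not pass (adjusted p = 0.349). Per kilobase of the longest transcript, Pdgfra was at 0.982 and Pdgfrb at 4.72 CPM in control F1, and at 2.85 and 6.64 CPM in FR F1 livers.

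Of the remaining 9 stellate markers none passed with edgeR, all had positive log2 fold changes, 7 had an unadjusted p under 0.05, and DESeq2 called Reln and Rgs5. limma-voom called none of these 9. Reln, which encodes the secreted glycoprotein reelin and marks stellate cells in liver, had 41.6, 46.9 and 60.6 CPM in control F1 and 106, 114 and 87.8 CPM in FR F1 libraries. The lowest FR F1 library exceeded the highest control library by a clear margin, and the log2 fold change was 1.04 ± 0.19 (edgeR adjusted p = 0.0588). It passed in DESeq2 (adjusted p = 0.000609) and in the edgeR fits without control replicate 1 or 3.

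Rgs5, a regulator of G-protein signalling typical of pericytes, had 84.1, 34.7 and 24.9 CPM in control F1 and 164, 127 and 110 CPM in FR F1 libraries. Control replicate 1 was well above the other controls. The log2 fold change was 1.49 ± 0.41 (edgeR adjusted p = 0.140). Without control replicate 1 it was 2.17 and passed (adjusted p = 0.00758).

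The most abundant stellate marker per kilobase was Ecm1, which encodes a secreted matrix protein, at 65.2 CPM per kilobase in control F1 and 107 in FR F1 livers. Its levels were 109, 91.0 and 171 CPM in control F1 and 209, 188 and 212 CPM in FR F1 libraries, with a log2 fold change of 0.71 ± 0.22 (adjusted p = 0.176). Colec11, a soluble lectin gene, had 34.3, 23.4 and 47.2 CPM against 58.3, 45.0 and 67.3 CPM, and its groups overlap (log2 fold change 0.69 ± 0.27, adjusted p = 0.244).

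Lrat, whose enzyme makes the retinyl esters that stellate cells store, had 16.9, 11.7 and 16.5 CPM in control F1 and 24.3, 63.4 and 22.6 CPM in FR F1 libraries. The groups do not overlap, but FR replicate 2 is far above the other libraries. The log2 fold change of 1.29 ± 0.43 (adjusted p = 0.192) was 0.64 without FR replicate 2. The intermediate filament gene Des, the nerve growth factor receptor gene Ngfr and the transcription factor gene Hand2 had log2 fold changes of 0.91 ± 0.36, 0.98 ± 0.42 and 0.57 ± 0.34, with adjusted p from 0.243 to 0.399. Hand2 shares 461 of its 2351 exonic base pairs with the antisense gene Hand2os1, and whether reads were counted by strand is not stated in the labels.

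Of the activation genes, Acta2 and Timp1 had too few counts to be tested in the fit of all 6 libraries. Acta2, which encodes smooth muscle alpha-actin, had 12, 3 and 4 counts in control F1 and 19, 9 and 5 in FR F1 libraries. Those correspond to 5.20, 1.35 and 1.53 CPM and to 7.10, 3.32 and 2.05 CPM, and the groups overlap. Timp1, the tissue inhibitor of metalloproteinases induced in activated stellate cells, had 0, 2 and 0 counts in control F1 and 0, 2 and 1 in FR F1 libraries. All 6 values are under the 3 counts that a count of 0 allows, so no difference was detectable at this depth.

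Tagln, which encodes the contractile protein transgelin, had 18.6, 24.8 and 24.6 CPM in control F1 and 24.3, 22.9 and 27.9 CPM in FR F1 libraries, which overlap almost fully (log2 fold change 0.14 ± 0.22, adjusted p = 0.748). It shares 1241 of its 1988 exonic base pairs with an antisense gene model that had 360 counts over the 6 libraries, against 357 for Tagln itself, so its level is uncertain. Vim, the intermediate filament gene vimentin of mesenchymal, endothelial and blood cells, had 29.9, 16.7 and 29.1 CPM against 54.6, 60.1 and 34.5 CPM. Its groups do not overlap, and its log2 fold change of 0.97 ± 0.29 did not pass (adjusted p = 0.167). Of these 2 tested activation genes edgeR, DESeq2 and limma-voom called 0, and 1 reached an unadjusted p below 0.05.

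Of the 11 collagen chains edgeR called 0, limma-voom 0 and DESeq2 2, Col14a1 and Col6a3, and 4 reached an unadjusted p below 0.05. Log2 fold changes ran from -0.06 to 1.25. The chains at the top were Col14a1, a fibril-associated collagen, and Col6a3, the long chain of microfibrillar collagen VI. Col14a1 had 65.0, 36.1 and 57.1 CPM in control F1 and 114, 131 and 101 CPM in FR F1 libraries, a non-overlapping difference of 1.12 ± 0.23 on the log2 scale (edgeR adjusted p = 0.0780). Col6a3 had 13.4, 8.11 and 15 CPM against 25.4, 37.2 and 24.6 CPM, also without overlap (1.25 ± 0.30, adjusted p = 0.110).

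The fibrillar collagens that dominate scar tissue differed less clearly. Col1a1 and Col1a2, the chains of collagen I, differed by 0.61 ± 0.39 (adjusted p = 0.432) and by 0.84 ± 0.32 on the log2 scale (adjusted p = 0.228). Col1a2 had 19.5, 21.6 and 33.0 CPM in control F1 and 41.5, 61.5 and 29.9 CPM in FR F1 libraries, where FR replicate 3 was below control replicate 3. Col3a1, the chain of collagen III, had 68.9, 50.0 and 79.4 CPM against 52.0, 132 and 66.5 CPM. FR replicate 2 alone exceeded the controls, and the log2 fold change of 0.33 ± 0.35 (adjusted p = 0.620) was -0.16 without it. Col5a1, Col5a2 and Col6a1 had 0.44, 0.74 and 0.62, with adjusted p of 0.464, 0.260 and 0.310.

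Of the basement membrane genes Nid1 passed, and the collagen IV and laminin chains did not. Col4a1 and Col4a2, the chains of collagen IV, are neighbours on chromosome 8 transcribed in opposite directions, with first exons that share 22 base pairs. Col4a1 had 62.4, 102 and 145 CPM in control F1 and 104, 91.0 and 112 CPM in FR F1 libraries. Col4a2 followed the same order in control F1, with 44.2, 103 and 143 CPM, and had 92.0, 81.1 and 108 CPM in FR F1 libraries. The log2 difference was -0.01 ± 0.28 for Col4a1 (adjusted p = 0.987) and -0.06 ± 0.36 for Col4a2 (adjusted p = 0.947), and the signs turned under other scalings or tests and without single libraries.

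Nid1 encodes nidogen 1, which links laminin to collagen IV (ENSMUSG00000005397.8, chromosome 13, 13437551 to 13512269). It had 16.9, 9.46 and 11.9 CPM in control F1 and 32.2, 36.1 and 38.6 CPM in FR F1 libraries. All 3 FR F1 libraries lie well above the controls. The log2 fold change was 1.48 ± 0.26 (edgeR adjusted p = 0.0498), and the call was lost with RLE size factors (adjusted p = 0.0509) and when genes with 0.5 or more counts per base pair were left out of the fit (adjusted p = 0.0565). The laminin chain genes Lamb1 and Lama2 had 0.61 ± 0.27 and 1.13 ± 0.46, with adjusted p of 0.290 and 0.253, and neither pair of groups overlaps.

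Genes whose products assemble together, and related pairs, were set side by side within each library as ratios of counts per kilobase, for 8 pairs chosen after their values were seen. With 3 libraries per group the smallest two-sided p of the exact permutation test is 0.1, so no pair can pass, and the Benjamini-Hochberg value over the 8 pairs was 0.2 for each pair at that minimum. Pdgfra over Pdgfrb was 0.215, 0.282 and 0.162 in the control F1 libraries and 0.439, 0.440 and 0.409 in the FR F1 libraries, without overlap (exact p = 0.1). Nid1 over Lamb1 was 0.975, 0.906 and 1.05 in control F1 and 1.60, 1.76 and 2.03 in FR F1 libraries, also without overlap (exact p = 0.1). Nid1 over Col4a1 was 0.294, 0.101 and 0.0891 against 0.335, 0.431 and 0.373 (exact p = 0.1). Pdgfra and Nid1 were among the genes that passed, so these ratios are not independent of those calls.

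**Figure D2:**
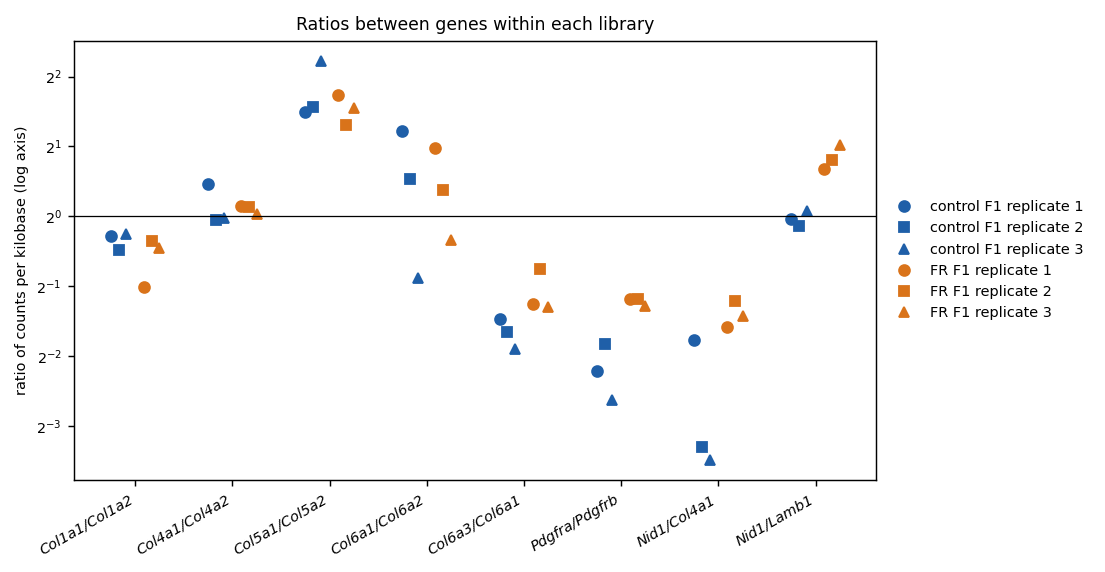
Ratio of 2 genes' CPM per kilobase (log axis) in each library for 8 pairs. Blue points are control F1 and orange points FR F1 libraries. Pdgfra over Pdgfrb lies at 0.162 to 0.282 in control F1 and 0.409 to 0.440 in FR F1 libraries.

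**Figure D3:**
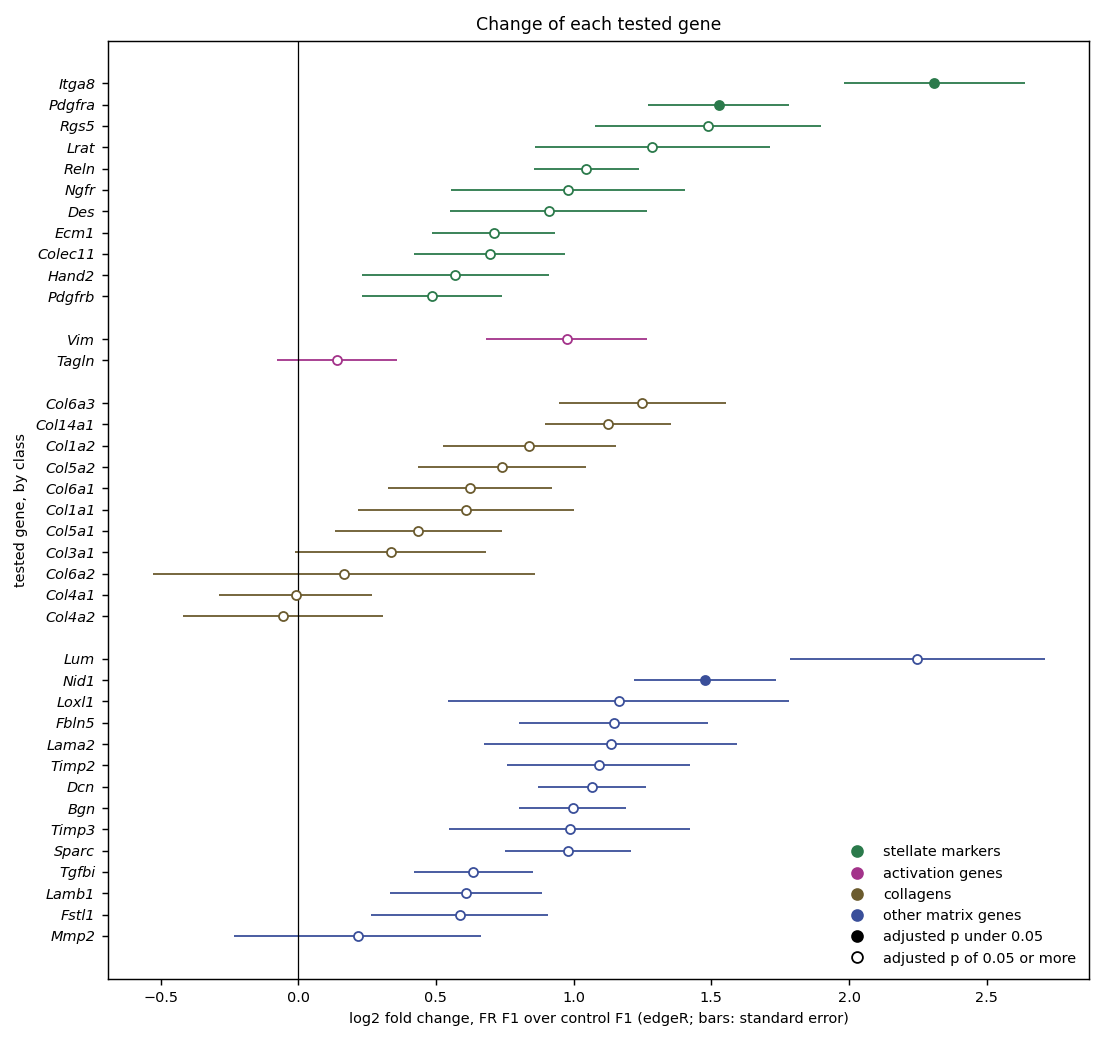
Log2 fold change of FR F1 over control F1 with its standard error for the 38 tested genes, by class, filled where the adjusted p was under 0.05. Itga8 (2.31), Pdgfra (1.53) and Nid1 (1.48) are filled, and Col4a1 (-0.01) and Col4a2 (-0.06) lie at 0.

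Of the other matrix genes, the leucine-rich proteoglycans that bind collagen fibrils were among the most separated, although none passed with edgeR. Dcn, which encodes decorin, had 110, 65.3 and 98.2 CPM in control F1 and 191, 206 and 176 CPM in FR F1 libraries, a log2 fold change of 1.07 ± 0.20 (edgeR adjusted p = 0.0588). Bgn, which encodes biglycan, had 107, 72.1 and 125 CPM against 208, 192 and 207 CPM (1.0 ± 0.20, adjusted p = 0.0732). Neither gene's groups overlap, and DESeq2 called both (adjusted p = 0.000376 and 0.000918). limma-voom called Dcn (adjusted p = 0.0479) and not Bgn (adjusted p = 0.0603).

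Lum, which encodes lumican, had the second largest log2 fold change of the 38, at 2.25 ± 0.46 (edgeR adjusted p = 0.0780, DESeq2 adjusted p = 0.000792). Its levels were 10.4, 3.15 and 5.75 CPM in control F1 and 22.8, 46.1 and 23.4 CPM in FR F1 libraries. Both groups are spread widely, and FR replicate 2 is the highest. Sparc, a collagen-binding matricellular glycoprotein gene also expressed in endothelium, had 94.5, 52.7 and 97.4 CPM against 151, 174 and 159 CPM (0.98 ± 0.23, edgeR adjusted p = 0.103). DESeq2 called Sparc (adjusted p = 0.00732) and limma-voom did not (adjusted p = 0.0875).

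None of the inhibitors and enzymes of matrix turnover passed with edgeR. Timp2 and Timp3, inhibitors of matrix metalloproteinases, differed by 1.09 ± 0.33 (adjusted p = 0.169) and by 0.99 ± 0.44 on the log2 scale (adjusted p = 0.287). Timp3 shares 1733 of its 8144 exonic base pairs with Syn3 on the other strand and is uncertain for that reason. Mmp2, a gelatinase gene, had 3.90, 4.06 and 8.05 CPM against 3.74, 8.11 and 6.98 CPM, with a log2 fold change of 0.22 ± 0.45 (adjusted p = 0.818). Loxl1, an elastin cross-linking enzyme gene, rested on 2, 2 and 12 counts in control F1 and 15, 11 and 13 in FR F1 libraries (1.16 ± 0.62, adjusted p = 0.353). The elastic fibre gene Fbln5, Fstl1 and the TGF-beta-induced gene Tgfbi had 1.15, 0.59 and 0.64, with adjusted p of 0.165, 0.365 and 0.2.

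Further genes of the same cells and pathways were compared. Of 22 tested genes of stellate cells outside the 40, 2 rose and 19 did not pass, and the median log2 fold change was 0.89. Ednrb, an endothelin receptor gene, rose from 5.34 ± 1.78 to 21.4 ± 2.3 CPM (log2 fold change 2.0 ± 0.31, adjusted p = 0.0385), and Rspo3, a Wnt agonist gene, rose by 2.52 ± 0.41 on the log2 scale (adjusted p = 0.0404). Rspo3 rested on 9, 7 and 6 counts in control F1 and 69, 43 and 30 in FR F1 libraries, and limma-voom did not call it (adjusted p = 0.0684). When 1 library at a time was left out, the edgeR adjusted p ranged from 0.0148 to 0.175 for Ednrb and from 0.0276 to 0.174 for Rspo3, with 2 and 1 of 6 fits below 0.05.

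Of 29 tested genes for further matrix proteins and collagen processing, edgeR called 0, DESeq2 2 and limma-voom 0, 8 reached an unadjusted p below 0.05 as higher and 1 as lower, and the median log2 fold change was 0.62. Of 16 tested genes of the TGF-beta pathway edgeR called 0, DESeq2 1 and limma-voom 0, 4 reached an unadjusted p below 0.05 as higher and 1 as lower, and the median was 0.33. Among 8 integrin and collagen receptor genes edgeR called 0, DESeq2 1 and limma-voom 0, 2 reached it as higher, and the median was 0.43. The 10 tested retinoid genes had a median of 0.01. Of these edgeR called 0, DESeq2 1 and limma-voom 0, with 1 at an unadjusted p below 0.05 as higher and 1 as lower. Of 3 tested PDGF ligand genes edgeR, DESeq2 and limma-voom called 0, and 1 reached an unadjusted p below 0.05 as higher. Over all genes tested, edgeR called 0.392% and DESeq2 1.94% as higher, and 9.02% had an unadjusted p below 0.05 as higher. limma-voom called 45 as higher and 58 as lower of the 13022. The share at an unadjusted p below 0.05 as lower was not computed. These lists too were chosen with earlier results of these data known, so the comparison with all genes is no test of them.

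Markers of other liver cells were compared in the same libraries. All 15 sinusoidal endothelial markers were positive. Their median log2 fold change was 1.01, the summed level was 570 to 919 CPM in control F1 and 1170 to 1409 CPM in FR F1 libraries, and edgeR called 0 of them, DESeq2 8 and limma-voom 1, while 11 reached an unadjusted p below 0.05. All 11 Kupffer cell markers were positive too, with a median of 0.43 and summed levels of 345 to 677 against 447 to 870 CPM. Of these, edgeR, DESeq2 and limma-voom called 0, and 2 reached an unadjusted p below 0.05. The 4 tested B cell markers were positive, with 36.1 to 74.6 against 81.8 to 166 CPM for the whole list. Among the most abundant members per kilobase of these lists, Clec4g and Eng of the endothelial list had 53.1 and 105 CPM on average in control F1 and 96.2 and 168 CPM in FR F1 livers, and C1qa and Clec4f of the Kupffer list 59.5 and 139 against 82.3 and 165 CPM. Ighm, of B cells, had 13.2 against 33.9 CPM and Igkc 29.95 against 39.1 CPM, and neither passed. Of 9 hepatocyte markers 8 were negative, with a median of -0.20 and summed levels of 4898 to 5825 against 4515 to 5066 CPM. Of these 9, edgeR, DESeq2 and limma-voom called 0, and 2 reached an unadjusted p below 0.05 as lower. Alb, the albumin gene, had 912 against 731 CPM and Apoa1 372 against 351 CPM. None of these markers was at 0 in all libraries. The part of endothelial, Kupffer, B cell or hepatocyte RNA in the differences above was not tested.

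Markers of cells that share matrix genes with stellate cells were summed in the same way. Portal fibroblast markers summed to 34.7 to 45.3 CPM in control F1 and 51.2 to 57.9 CPM in FR F1 libraries, with 4 of 7 tested positive and the FR F1 libraries wholly above the controls. Entpd2 had 12.2 against 8.0 CPM and Dpt 2.76 against 9.71 CPM. Mesothelial markers summed to 6.76 to 11.5 against 12.3 to 24.2 CPM, also without overlap and with all 3 tested positive, and Schwann cell markers to 5.86 to 8.82 against 6.98 to 13.5 CPM. Smooth muscle markers summed to 291 to 418 against 282 to 408 CPM, nearly all of it Mylk, which other cells express too. The smooth muscle regulator Myocd was at 0 in all libraries, Cnn1 and Actg2 had at most 0.523 CPM on average in a group, and 1 of the 2 tested smooth muscle markers was positive. Skeletal muscle markers summed to 3.47 to 4.99 against 2.21 to 2.87 CPM and none was tested. Cholangiocyte markers summed to 43.3 to 138 against 71.4 to 95.2 CPM, with 1 of 2 tested positive, and T and NK cell markers to 3.15 to 12.1 against 10.3 to 10.8 CPM with none tested. The part of portal fibroblast and mesothelial RNA was not tested.

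**Figure D4:**
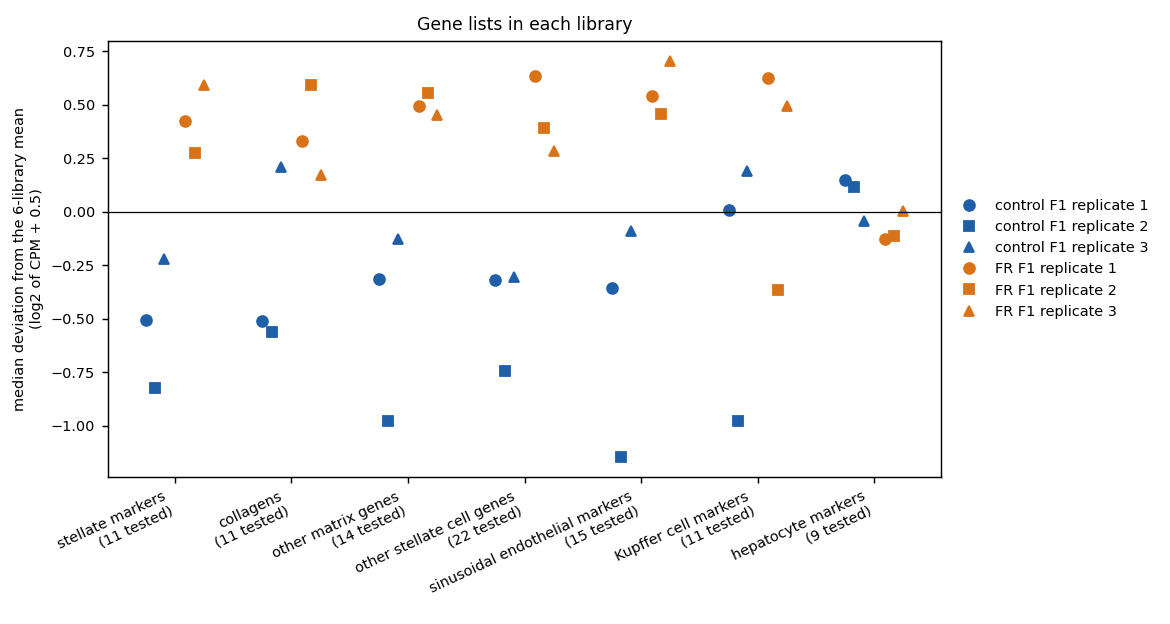
For each gene list and library, the median over genes of log2(CPM + 0.5) less the gene's mean over all 6 libraries. Blue points are control F1 and orange points FR F1 libraries, with a symbol for each replicate number. Control replicate 2 is lowest for the stellate markers (-0.83) and the endothelial markers (-1.15), and the hepatocyte list spans -0.13 to 0.15.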

How the data were processed

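Polyadenylated RNA was sequenced in 6 libraries, and the table the authors deposited holds raw counts for each Ensembl gene, 1 column per library. Per the submitters' processing notes the tools were STAR, StringTie, HTSeq and DESeq2 and the build mm10; roles, versions, the annotation, strandedness and the handling of shared reads are not stated there. Columns were matched to samples by the code in each sample's description. Symbols, positions and transcript lengths came from GENCODE M21, which matched 53620 of 53715 IDs. Levels per kilobase use the longest transcript. Promoter windows came from RefSeq on GRCm38.p6.

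Counts were tested with edgeR 4.0.16 (R 4.3.3), filterByExpr (min.count 10, min.total.count 15), TMM and quasi-likelihood F tests, two-sided, adjusted over the 13022 genes left. DESeq2 1.42.0 and limma-voom (limma 3.58.1) were alternatives. The standard error is the absolute log2 fold change over the square root of F. No 2 libraries of a group agreed within counting noise (chi-square per degree of freedom 4.32 to 14.9), and each counts as 1 replicate. The labels do not say whether libraries came from separate animals, so p-values measure the spread between these libraries. The 40 genes, their classes, the other lists and the alternatives were chosen with earlier results of these data known. All 40 genes may be named. Values in every library are given for those that passed. They are also given for the 3 of smallest p and the 3 most abundant per kilobase of each class. Chosen after their values were seen, Pdgfrb, Lrat, Lum, Mmp2, Loxl1 (as counts) and the 2 genes not tested are given likewise. Of the other lists, genes past the threshold were named, except 1 that is not reported here, and of marker lists up to 2 of the most abundant members per kilobase, with Myocd, Cnn1 and Actg2 chosen after their values were seen. The fit was tested on simulated data.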

Additional observations from a re-analysis of the deposited data

How the results depend on the processing

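The counts of calls, the 4 class medians and the log2 fold changes of the 38 tested members were recomputed under 15 other settings; the ratios, the other lists' medians and sums and the motif counts were not. With edgeR, 3 of the 38 tested members and 109 of all genes passed. DESeq2 called 11 and 457, no filter on low counts 17 and 1251, and a fit with the replicate block 0 and 21. With that block the adjusted p was 0.077 for Itga8 and 0.106 for Pdgfra and Nid1. There 21 members had an unadjusted p under 0.05 in either direction, and the share over all genes was not computed. Leaving out 1 library gave between 0 and 10 members and between 7 and 651 genes. The median log2 fold change then ranged from 0.73 to 1.17 for stellate markers, 0.39 to 0.94 for collagens and 0.81 to 1.15 for other matrix genes. For activation genes it ranged from 0.33 to 0.95. Acta2 had enough counts to enter that median in 4 of these fits, and both ends of the range are its values. The median therefore does not cover the same genes in every fit. Col4a1 turned positive with DESeq2 (0.004), limma-voom (0.057), RLE size factors (0.003) and the block (0.060), and Col4a2 with limma-voom (0.080) and the block (0.070). Without 1 library Col4a1 ranged from -0.27 to 0.32, Col4a2 from -0.40 to 0.34, Col6a2 from -0.24 to 1.62, Col3a1 from -0.16 to 0.60 and Mmp2 from -0.015 to 0.65. The cause was not tested. Over single members and settings, 501 values kept direction and call, 34 gained a call, 20 lost it and 15 changed sign. Deviations of same-numbered libraries correlated at -0.017, 0.108 and 0.153, and control replicate 1 correlated best with FR replicate 2 (0.155), so the numbers were not taken to pair the samples. Low counts limit Acta2, Timp1, Loxl1 and Mmp2.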

Other observations

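Ratios of the chains of 1 collagen, per kilobase, were among the 8 pairs chosen after their values were seen. Col4a1 over Col4a2 was 1.38 in control replicate 1, and its other values were 0.962 and 0.986 in control F1 and 1.11, 1.1 and 1.02 in FR F1 libraries (exact p = 1.0 between groups). Col6a3 over Col6a1 was 0.359, 0.318 and 0.268 in control F1 and 0.418, 0.594 and 0.406 in FR F1 libraries, without overlap (exact p = 0.1, the smallest possible, and 0.2 after Benjamini-Hochberg adjustment). Col6a1 over Col6a2 ran from 0.540 in control replicate 3 to 2.33 in control replicate 1, and from 0.790 to 1.98 in the FR F1 libraries (exact p = 1.0). Col6a2 itself rested on 18, 19 and 131 counts in control F1, so that control replicate 3 held most of that group's counts, while Col6a1 had 35, 23 and 59. Col1a1 over Col1a2 ran from 0.714 to 0.839 in control F1 and from 0.496 to 0.783 in FR F1 libraries (exact p = 0.3), and Col5a1 over Col5a2 from 2.82 to 4.69 and from 2.48 to 3.32 (exact p = 0.5).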
